A study of Mus musculus with 8 samples.

Results

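The genes described here are the ligands of the fibroblast growth factor (FGF), bone morphogenetic protein (BMP) and transforming growth factor beta (TGF-beta) families, with 4 secreted antagonists. A fixed list of 43 genes was used, and all 43 had a span in the RefSeq annotation of GRCm38. The histone mark H3K27me3 was measured in mouse 3T3 cells, an immortalised fibroblast line, by sequencing of immunoprecipitated, nuclease-cut chromatin, with 3 libraries from cells carrying a control construct and 3 from cells carrying an overexpression construct for NNMT. NNMT, nicotinamide N-methyltransferase, uses the methyl donor S-adenosylmethionine, so the comparison asks where a histone methyl mark differs between the constructs. All cells, control and NNMT alike, had been grown for 48 h in medium made up to 10 µM methionine with 10% dialyzed serum. Formaldehyde at 1% was used for all samples, and 1 input library per construct was also made. The labels do not say which promoter drives the constructs, or whether the cells were clones or pools.

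The authors' deposited table lists 265968 regions, each with 3 values for one set of libraries and 3 for another. Nothing used here says which set is NNMT. They are numbered set 1 and set 2 in the order of listing, and no direction below is tied to NNMT. A region was assigned to a gene when it overlapped the gene span extended by 2 kb on each side. By that rule 25 of the 43 genes carried at least 1 region (58.1%), against 31.2% of 21887 protein-coding genes, and the 25 carried 325 regions, none of them shared between listed genes. The table is a selected list in which the highest p is 0.1. A gene without a region was therefore not listed as differing, which does not show that it lacks the mark or that the mark is equal. No source used here states an input correction, so unequal gene copy number and an unequal mark cannot be told apart.

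FGFs are secreted proteins that signal through receptor tyrosine kinases, except for a branch that stays inside the cell and binds voltage-gated sodium channels, and another that circulates as hormones. BMPs, growth and differentiation factors (GDFs), activins, nodal and TGF-betas form 1 superfamily, which signals through serine/threonine kinase receptors and SMAD proteins. Noggin, chordin, gremlin and follistatin bind such ligands outside the cell and block them. Many of these genes are silent outside embryonic signalling centres, and H3K27me3, laid down by Polycomb repressive complex 2, is a mark of such silent developmental genes.

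Summed over each gene's regions, H3K27me3 values differed in both directions. All 3 libraries of set 1 lay above all 3 of set 2 for 10 of the 25 genes with regions (40%, against 59.1% of all 6833 protein-coding genes with regions). All 3 of set 2 lay above all 3 of set 1 for 9 (36%, against 22.3%), and the values overlapped for 6. These shares depend on scaling: with libraries rescaled to equal sums, 10 genes were separated each way (40%), beside 47.1% of all genes towards set 1 and 31.6% towards set 2. Genes with such non-overlapping values are called separated below. With 3 libraries against 3, the exact two-sided permutation test cannot give a p below 0.1, so no gene can pass 0.05 and separation is a description. The median log2 ratio of set 1 over set 2 was 0.11 for the listed genes and 0.37 for all protein-coding genes with regions. A ratio of 2-fold or more was reached by Fgf1 towards set 1 (15.8% of all genes with regions reach it in that direction) and by Bmp2, Bmp3 and Gdf6 towards set 2 (5.81%). The error beside a ratio is its range when each library of one set is divided by each of the other, 9 pairs in all.

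**Figure D1:**
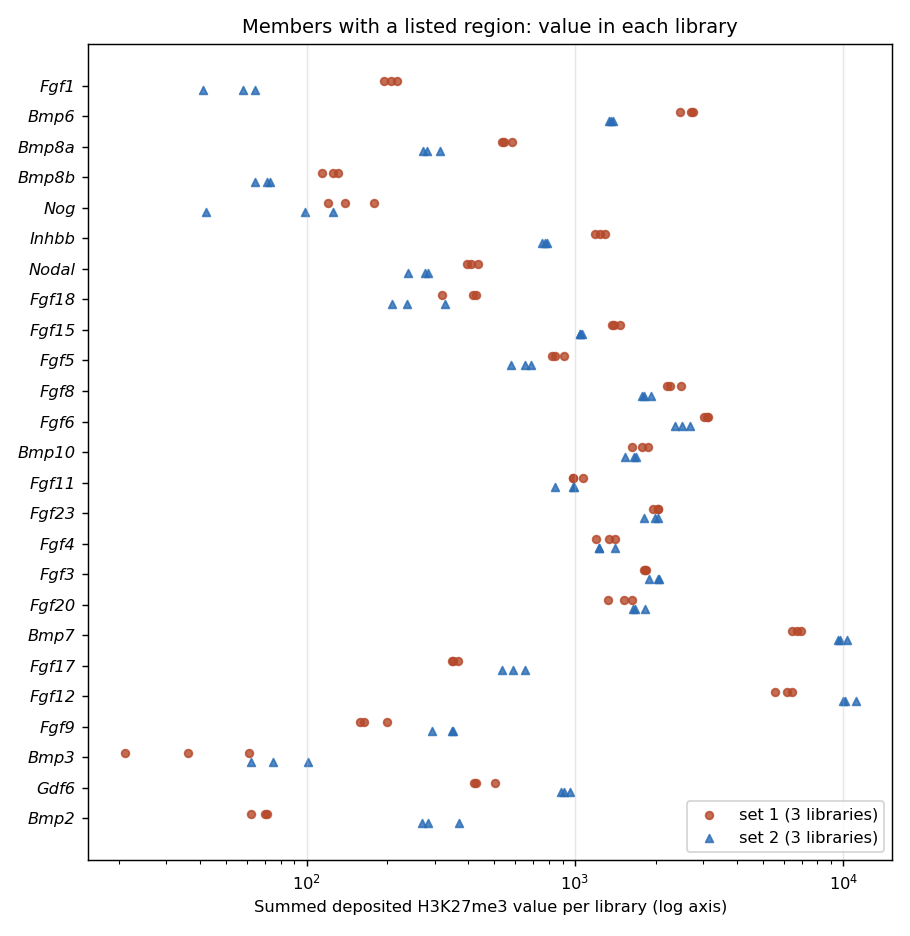
Deposited H3K27me3 values summed over the listed regions of each gene (log axis), with circles for the 3 libraries of set 1, triangles for the 3 of set 2, and genes ordered by the ratio of the sets. The sets do not overlap for the top 4 genes, Fgf1, Bmp6, Bmp8a and Bmp8b, and for the lowest, Bmp2, Gdf6, Bmp3, Fgf9 and Fgf12.

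Start sites were examined in RefSeq promoter windows, from 250 bases before to 50 after the start, which could be matched for 15 of the 25 genes (18 windows). A region overlapped 3 of these windows, those of Bmp10, Fgf11 and Fgf6. Over all protein-coding genes with regions, 28.0% of 6689 windows were overlapped, and the count of 3 is not read as a result about these genes. The genes without a matched window include Fgf1, Fgf8, Fgf17, Bmp2, Bmp7 and Gdf6. The dinucleotide CG, the site of DNA methylation whose clusters are known as places where Polycomb complexes gather, was counted on both strands at once, since it reads the same on each, and 95.4% of protein-coding promoters hold it. The overlapped windows held 3 CG for Bmp10, 5 for Fgf11 and 10 for Fgf6, where the median protein-coding promoter held 13. The Fgf6 count is not low, since 43.2% of protein-coding promoters held fewer than 10. Only the region over the Fgf6 window was separated, towards set 1 (log2 ratio 0.69). The 2 regions over the Bmp10 window pointed in opposite directions (-0.30 and 0.25), and the sets overlapped in both. The sets also overlapped in the region over the Fgf11 window (-0.36). The windows are shown because a listed region lay over them (GRCm38.p6, read 5′ to 3′ on the gene's strand, CG in capitals). Bmp10 is at chr6:87428744-87429043 on the plus strand, Fgf11 at chr11:69802231-69802530 on the minus strand and Fgf6 at chr6:127015292-127015591 on the plus strand.
Bmp10: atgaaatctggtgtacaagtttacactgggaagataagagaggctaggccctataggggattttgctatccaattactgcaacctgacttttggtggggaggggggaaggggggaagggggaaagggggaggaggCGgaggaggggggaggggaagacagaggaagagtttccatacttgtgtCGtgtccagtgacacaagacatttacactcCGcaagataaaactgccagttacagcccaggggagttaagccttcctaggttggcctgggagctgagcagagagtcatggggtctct
Fgf11: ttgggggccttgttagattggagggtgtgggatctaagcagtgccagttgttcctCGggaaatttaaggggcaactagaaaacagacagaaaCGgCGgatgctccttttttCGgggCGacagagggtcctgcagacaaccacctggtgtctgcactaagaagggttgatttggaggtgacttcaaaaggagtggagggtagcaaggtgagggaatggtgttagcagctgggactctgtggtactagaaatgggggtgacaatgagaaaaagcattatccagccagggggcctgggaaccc
Fgf6: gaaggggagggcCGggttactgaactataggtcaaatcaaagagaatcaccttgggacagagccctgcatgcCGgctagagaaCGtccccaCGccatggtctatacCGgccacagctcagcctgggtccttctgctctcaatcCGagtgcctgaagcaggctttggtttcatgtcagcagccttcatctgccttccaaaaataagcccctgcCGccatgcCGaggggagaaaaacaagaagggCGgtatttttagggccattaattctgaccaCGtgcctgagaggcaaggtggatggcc

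Windows with many CG had no region over them although regions lay in or beside the gene. Fgf4 (chr7:144861136-144861435, plus strand) held 28 CG, Fgf5 (chr5:98253934-98254233, plus strand) 29, Bmp6 (chr13:38345466-38345765, plus strand) 27 and Inhbb (chr1:119422199-119422498, minus strand) 23. They are printed for comparison with the first 3.
Fgf4: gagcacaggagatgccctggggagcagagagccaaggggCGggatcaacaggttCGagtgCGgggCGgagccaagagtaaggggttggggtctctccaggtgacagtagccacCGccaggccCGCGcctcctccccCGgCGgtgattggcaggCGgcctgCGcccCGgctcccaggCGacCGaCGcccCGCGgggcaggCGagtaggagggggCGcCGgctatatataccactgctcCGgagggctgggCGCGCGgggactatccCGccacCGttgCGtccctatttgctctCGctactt
Fgf5: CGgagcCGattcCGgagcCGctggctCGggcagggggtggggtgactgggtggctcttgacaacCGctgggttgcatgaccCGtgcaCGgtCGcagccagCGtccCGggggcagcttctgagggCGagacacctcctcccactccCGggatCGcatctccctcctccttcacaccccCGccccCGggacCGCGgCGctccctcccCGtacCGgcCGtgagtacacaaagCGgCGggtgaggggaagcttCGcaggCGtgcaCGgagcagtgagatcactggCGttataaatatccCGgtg
Bmp6: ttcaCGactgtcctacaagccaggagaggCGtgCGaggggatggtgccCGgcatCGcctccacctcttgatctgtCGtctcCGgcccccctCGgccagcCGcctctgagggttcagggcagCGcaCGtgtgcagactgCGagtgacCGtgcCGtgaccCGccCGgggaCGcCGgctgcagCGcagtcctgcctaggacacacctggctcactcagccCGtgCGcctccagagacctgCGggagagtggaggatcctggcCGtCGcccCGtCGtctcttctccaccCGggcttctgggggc
Inhbb: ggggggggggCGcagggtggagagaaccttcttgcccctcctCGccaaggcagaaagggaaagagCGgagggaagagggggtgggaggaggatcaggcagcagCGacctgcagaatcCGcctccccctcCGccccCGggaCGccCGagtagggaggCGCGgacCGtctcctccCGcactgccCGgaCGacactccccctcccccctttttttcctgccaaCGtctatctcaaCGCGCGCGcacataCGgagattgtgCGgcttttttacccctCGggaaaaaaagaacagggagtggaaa

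The listed regions stopped on either side of the Fgf4 start, with the nearest ending 436 bp before it and the next beginning 1565 bp after it. At Fgf3 the distances were 312 bp and 1239 bp, at Fgf23 702 bp and 749 bp, and at the most upstream of the 4 listed Fgf12 starts 958 bp and 743 bp. The first region of Fgf5 began 1867 bp after the start, that of Inhbb 2198 bp after, and that of Bmp6 95.4 kb after. Low CG alone did not go with a region over the start, since the windows of Nodal (5 CG) and Fgf23 (6 CG) had none. Over all protein-coding genes with regions, the median was 5 CG for overlapped windows and 11 for the others. A region lay over 39.9% of windows with 9 CG or fewer, over 19.9% of those with 10 to 19 and over 8.70% of those with 20 or more. The uncovered starts of the CG-rich genes are thus also the common case in the table.

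**Figure D2:**
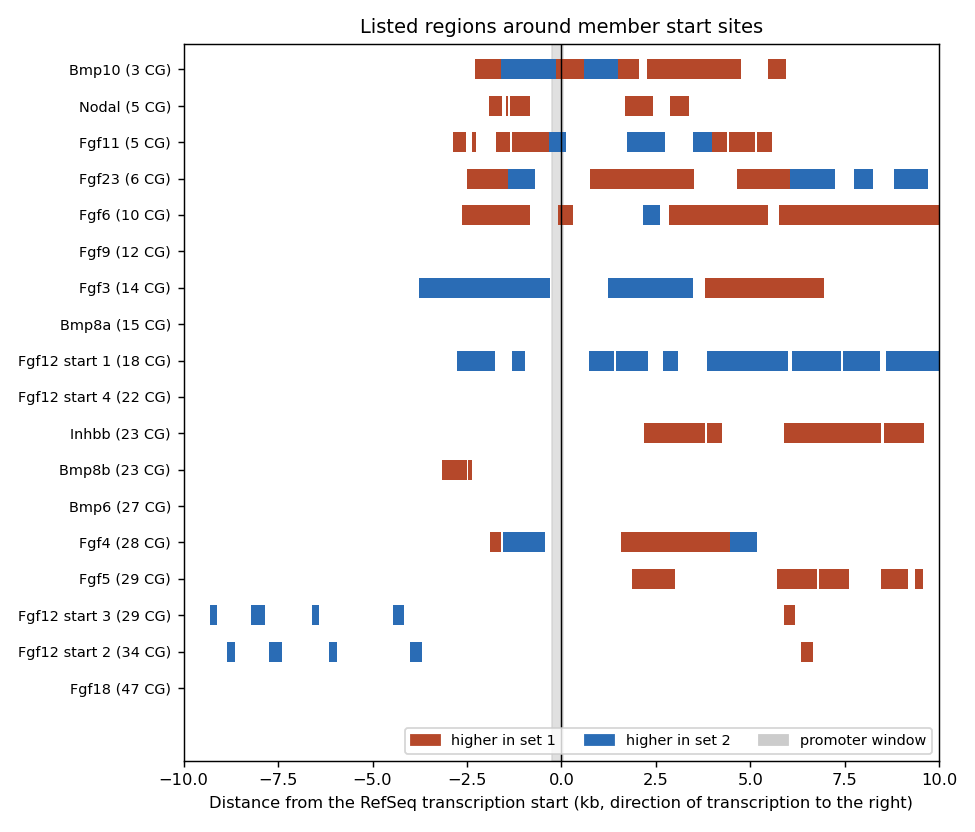
Listed regions assigned to each gene (bars) by distance in kb from its RefSeq start, within 10 kb, for the 18 listed starts of 15 genes ordered by the number of CG in the promoter window, with Fgf12 starts numbered in the direction of transcription and regions beyond 2 kb outside the gene span not drawn. Bars lie over the grey promoter window for Bmp10, Fgf11 and Fgf6 alone.

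Among the 20 FGF genes, 14 carried regions, of which 5 were separated towards set 1, 5 towards set 2 and 4 overlapped. Of the 14 canonical, receptor-binding FGFs, 10 carried regions and 4 were separated each way. Fgf1, acidic FGF, which binds all FGF receptors, had the highest ratio towards set 1. Its sums were 206, 195 and 218 in set 1 against 58, 64 and 41 in set 2, a ratio of 3.80 (3.05 to 5.32 over pairs). Every library of set 1 lay above any of set 2, and all 9 of its regions, between 50 and 200 bp long, were separated towards set 1. They covered only 1.21% of its extended span.

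Fgf3, Fgf4 and Fgf15 lie side by side on chromosome 7 (144838612 to 144900953) and did not move alike. Fgf3 and Fgf4 act in the early embryo and inner ear, while Fgf15 is the intestinal hormone that restrains bile acid synthesis. Fgf15 stood at 1474, 1393 and 1374 in set 1 and 1043, 1063 and 1042 in set 2, with no overlap, a ratio of 1.35 (1.29 to 1.41) and all 6 regions higher in set 1. Fgf3 was separated the other way, with 1832, 1820 and 1810 in set 1 against 1887, 2051 and 2047 in set 2, 1.10-fold higher in set 2 (1.03 to 1.13). The separation of Fgf3 rests on a region before its start (144834851 to 144838300). With the gene span alone, or with at least 50% of a region required inside the extended span, the log2 ratio of set 1 over set 2 went from -0.13 to -0.03 and the sets overlapped. Fgf4 overlapped, at 1197, 1416 and 1341 against 1225, 1413 and 1233, and its ratio of 1.02 (0.847 to 1.16) turned towards set 2 when the libraries were rescaled to equal sums, and also when any 1 of 3 single libraries was left out. Listed regions covered most of these genes, at 78.8% of the extended span of Fgf3, 63.6% of Fgf4 and 65.3% of Fgf15. Taken over the whole stretch from Fgf3 to Fgf15, 35 regions summed to a ratio of 1.03 (0.952 to 1.08), with 21 higher in set 1 and 14 in set 2.

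Fgf6, a muscle-expressed FGF, and Fgf23, the bone-derived hormone of phosphate balance, are neighbours on chromosome 6 (127015542 to 127082296). Fgf6 was separated towards set 1, at 3096, 3038 and 3138 against 2350, 2674 and 2496, a ratio of 1.23 (1.14 to 1.34). Its highest region in the authors' deposited table (127021301 to 127025750, across the end of the gene) had 1213, 1193 and 1207 against 745, 1046 and 941. The region over its start (127015451 to 127015850) had the largest separated ratio of the gene, 1.61, with 79, 88 and 72 against 37, 46 and 65 in the authors' deposited table. Fgf23 overlapped, at 2036, 1954 and 2039 against 1812, 2034 and 1988, with 3 regions towards set 1 and 4 towards set 2, and its ratio of 1.03 also turned under rescaling. A region of 2750 bp just after the Fgf23 start was separated towards set 1 (757, 753 and 875 against 684, 623 and 655 in the authors' deposited table). Another at the end of the gene (127081701 to 127082600) was separated towards set 2 (136, 131 and 93 against 202, 148 and 188 in the authors' deposited table). Opposite regions within 1 gene thus summed to near equality.

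Fgf8 and Fgf17 belong to the same FGF subfamily, which patterns the midbrain and, for Fgf8, the limb bud, and they stood on opposite sides. Fgf8 (chromosome 19, 45736491 to 45742941) had 2201, 2493 and 2253 in set 1 and 1810, 1919 and 1782 in set 2, with no overlap and a ratio of 1.26 (1.15 to 1.40). In the authors' deposited table its highest region (45734001 to 45738200) had 1098, 1191 and 1081 against 798, 815 and 862. Fgf17 (chromosome 14, 70636203 to 70642268) had 349, 368 and 350 in set 1 and 534, 586 and 653 in set 2, 1.66-fold higher in set 2 (1.45 to 1.87). The highest Fgf17 region in the authors' deposited table (70641051 to 70642750) had 195, 218 and 210 against 318, 368 and 334. All 5 Fgf17 regions were higher in set 2, while Fgf8 had 3 towards set 1 and 1 towards set 2. Fgf18, the third member, which acts in cartilage and bone, carried 1 region in its flank, with 416, 319 and 426 against 208, 237 and 328, so the sets overlapped.

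Fgf9 and Fgf20 form another subfamily, active in lung, gonad, hair and inner ear, and both were separated towards set 2. Fgf9 stood at 158, 200 and 163 in set 1 and 350, 294 and 348 in set 2, 1.90-fold higher in set 2 (1.47 to 2.22), and all 9 of its regions pointed that way. They lay in the part of the gene beginning 20.7 kb after the start. Fgf20 stood at 1638, 1526 and 1323 against 1820, 1670 and 1652, 1.15-fold higher in set 2 (1.01 to 1.38), with 3 regions towards set 1 and 6 towards set 2. The separation of Fgf20 was narrow and was lost with a flank of 0 or 5 kb or with regions at the authors' p under 0.05. Fgf5, which ends the growth phase of the hair cycle, was separated towards set 1 at 911, 845 and 821 against 579, 684 and 650, a ratio of 1.35 (1.20 to 1.57), with 7 of 8 regions in that direction.

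The intracellular FGFs are best known from neurons. Fgf12 carried 126 regions, 38.8% of all regions of the listed genes, and 123 of them were higher in set 2. Its sums were 6178, 6467 and 5588 in set 1 against 9959, 11142 and 10133 in set 2, 1.71-fold higher in set 2 (1.54 to 1.99). The regions were short, with a median of 350 bp, and spread over 498600 bp of a gene of 595461 bp, with 27 within 20 kb of a listed start. In the authors' deposited table its highest region (chromosome 16, 28747251 to 28749400) had 306, 311 and 216 against 448, 462 and 420. The region with the largest separated ratio (28258451 to 28258550) was thin, with 4, 3 and 0 against 10, 17 and 31 in the authors' deposited table. Fgf11 overlapped, at 985, 980 and 1075 against 984, 995 and 844, and none of its 10 regions was separated. Its ratio of 1.08 turned under rescaling and with a flank of 5 kb. Fgf14 carried no region in a longer span, 703246 bp, but none was listed within 500 kb of its extended span either.

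**Figure D3:**
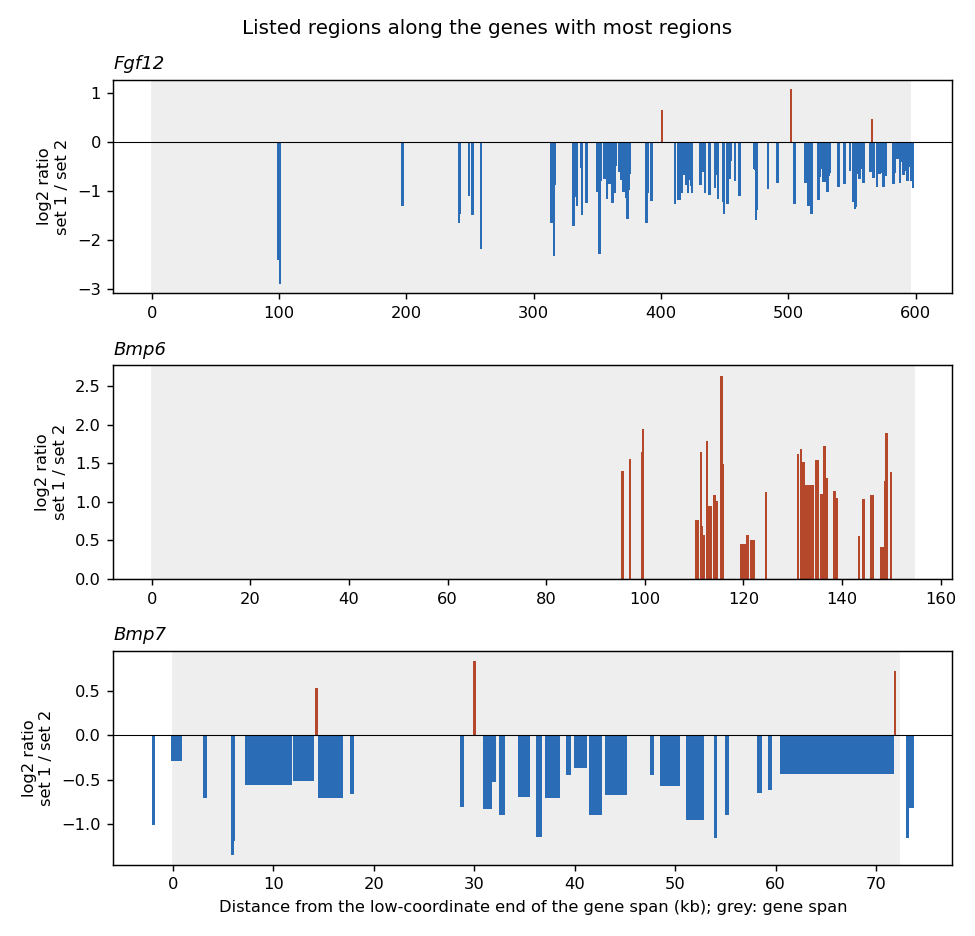
Log2 ratio of set 1 over set 2 for each listed region (bars, width equal to region length with a minimum for visibility) against distance in kb from the low-coordinate end of the gene, for the 3 genes with most regions. In Fgf12, 123 of 126 bars point towards set 2, in Bmp6 all 36 towards set 1 and in Bmp7 30 of 33 towards set 2.

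Of 13 BMP and GDF genes, 8 carried regions, 3 separated towards set 1, 4 towards set 2 and 1 overlapping. Bmp2, a strong inducer of bone, had the largest ratio of all the listed genes. On chromosome 2 (133552159 to 133562896) its sums were 70, 71 and 62 in set 1 against 269, 371 and 284 in set 2, 4.55-fold higher in set 2 (3.79 to 5.98). Every one of its 8 regions was separated. In the authors' deposited table the highest (133559901 to 133560550) had 24, 30 and 30 against 112, 121 and 136, and the one of largest ratio (133559301 to 133559650) had 13, 6 and 0 against 39, 122 and 55. Per kb of listed region, the mean value was 41.0 in set 1 and 187 in set 2, so the set 2 level was like that of Fgf12 (182 per kb) while set 1 was the lowest of any listed gene in either set.

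Bmp7, needed for kidney and eye development, lies further along chromosome 2 (172868012 to 172940321) and was also higher in set 2. Its sums were 6978, 6719 and 6458 in set 1 against 9684, 10325 and 9532 in set 2, a 1.47-fold difference (1.37 to 1.60), with 30 of 33 regions in that direction. Its longest region, 11350 bp at the high-coordinate end of the gene (172928451 to 172939800), is also the longest of all the listed genes. In the authors' deposited table it had 2523, 2774 and 2575 against 3389, 3689 and 3610, and it held 37.3% of the gene's summed value. Regions covered 53.7% of Bmp7 but 11.2% of Bmp2.

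Bmp6, an iron-responsive ligand that controls hepcidin in liver, was the mirror of Bmp7. It belongs to the same BMP subfamily, yet all 36 of its regions were higher in set 1. The sums of set 1, 2718, 2742 and 2454, lay above those of set 2, 1340, 1359 and 1381, a ratio of 1.94 (1.78 to 2.05). The highest Bmp6 region in the authors' deposited table (chromosome 13, 38478201 to 38479950) had 341, 343 and 358 against 156, 124 and 166. Every Bmp6 region lay at least 95.4 kb after the start of a gene of 154599 bp. The first part of the gene, with its CG-rich start, held none.

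Bmp8a and Bmp8b, duplicated genes with roles in germ cells and brown fat, lie 186551 bp apart on chromosome 4 and were both separated towards set 1. Bmp8a had 583, 546 and 534 in set 1 and 282, 314 and 272 in set 2, a ratio of 1.92 (1.70 to 2.14), with all 7 regions in that direction. Bmp8b had 125, 131 and 114 against 71, 73 and 64, a ratio of 1.78 (1.56 to 2.05), from 2 regions in its flank. Both Bmp8b regions lie before its start. Reads from like parts of duplicated genes can be shared between copies, and how alike the sequences under these regions are was not measured.

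Gdf6, which shapes joints and skull sutures (chromosome 4, 9844372 to 9862345), was higher in set 2 in all 13 of its regions. It stood at 421, 504 and 428 in set 1 and 911, 885 and 956 in set 2, a 2.03-fold difference (1.76 to 2.27). The highest Gdf6 region of the authors' deposited table (9849951 to 9851350) had 91, 159 and 129 against 225, 312 and 266. Bmp3, a BMP with inhibitory activity in bone, rested on 2 short regions with 61, 36 and 21 against 62, 101 and 75. That is 2.02-fold higher in set 2, but the pairs ran from 1.02 to 4.81, and its separation was by 1 unit. Bmp10, a heart ligand, carried regions over 74.1% of its extended span, 5 towards set 1 and 2 towards set 2. It had 1774, 1879 and 1628 against 1657, 1693 and 1541, a ratio of 1.08 (0.962 to 1.22) that turned under rescaling.

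Among the TGF-beta, activin and nodal genes, 2 of 6 carried regions, both separated towards set 1. Inhbb, the beta-B subunit of activins and inhibins (chromosome 1, 119415463 to 119422248), had 1289, 1240 and 1187 in set 1 and 775, 786 and 756 in set 2, a ratio of 1.60 (1.51 to 1.71) over 4 regions. Its highest value in the authors' deposited table was for a region (119413801 to 119416350) across the end of the gene, with 615, 574 and 537 against 374, 425 and 359. Nodal, the mesoderm and left-right signal (chromosome 10, 61417972 to 61425338), had 395, 434 and 409 in set 1 and 283, 276 and 238 in set 2, a ratio of 1.55 (1.40 to 1.82). Its separation was lost with the gene span alone. Of the 4 antagonists, only Nog, encoding noggin, carried a region, in its flank, with 179, 120 and 139 against 42, 125 and 99, so the sets overlapped.

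The 18 genes with no listed region were Fgf2, Fgf7, Fgf10, Fgf14, Fgf21, Fgf22, Bmp4, Bmp5, Gdf5, Gdf7, Gdf10, Tgfb1, Tgfb2, Tgfb3, Inhba, Grem1, Chrd and Fst. They include all 3 TGF-beta ligands, the mesenchymal FGFs Fgf7 and Fgf10, the basic FGF Fgf2 and 3 of the 4 antagonists. They were not shorter than the others, with a median span of 15502 bp against 9395 bp for the 25 with regions. For Fgf10, Fgf14 and Fst, no region was listed within 500 kb of the extended span either. Their absence from the list is thus shared with the whole stretch around them. A fixed list of 15 fibroblast genes, including Col1a1 and Thy1, carried no region (0 of 15, where 31.2% of all protein-coding genes carried one). No link between these and the 18 genes was tested. Regions were carried by 7 of 10 epithelial, 7 of 8 endothelial, 7 of 7 blood and 5 of 8 neuronal marker genes. The mark is no measure of RNA, so expression of the listed genes was not tested.

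Broad and thin coverage went with different ratios. The limit used here, 40% of the extended span, was chosen after the values were seen. In the 11 genes above it, the higher set exceeded the lower by 1.02-fold to 1.60-fold, and 9 of the 11 had regions in both directions. In the 14 genes below it, the difference was 1.35-fold to 4.55-fold, and 2 had regions in both directions. Short regions had the larger ratios in the whole table too. The median fold of the higher over the lower set was 2.06 for the 197 regions of the listed genes under 500 bp and 1.30 for the 22 of at least 2000 bp, and 2.11 and 1.34 over all listed regions of those lengths. The table holds only regions with p up to 0.1, so a short region with low values enters it only with a large ratio. The contrast between thin and broad coverage can follow from that selection and is not read as a result about these genes. The part of region length in the genes' ratios was not tested.

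Some regions in both directions follow from the form of the table. All 16985 pairs of regions that touch end to end in it are higher in opposite sets, so a gene holding such a pair has both directions whatever its values. That applies to 13 pairs in 7 of the genes, Fgf4, Fgf8, Fgf11, Fgf20, Fgf23, Bmp7 and Bmp10, and nothing is read from the alternation. All 7 lie above the 40% limit of coverage, so most of the 9 of 11 genes with both directions there had them by this rule.

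Regions around most genes leaned the same way as the genes. For each gene, listed regions within 500 kb of the extended span, but outside it, were summed. The higher set was the same for the gene and its surroundings in 21 of 25 cases. Surroundings were not summed for the other protein-coding genes with regions. Neither this count nor the correlation below is therefore read as particular to the listed genes. Around Bmp2, all 66 regions were higher in set 2, with a ratio of 2.93 towards set 2. Around Fgf1, all 126 were higher in set 1, with a ratio of 2.48. Bmp8a had 166 of 168 surrounding regions higher in set 1 (1.59-fold) and Inhbb 160 of 172 (1.49-fold). Across the 25 genes, log2 ratios of gene and surroundings correlated at a Pearson r of 0.85 (Spearman rho 0.71), or 0.69 without Bmp2 and Fgf1. Neighbouring genes share surroundings, so the 25 points are not independent. What the surroundings have to do with the genes' ratios was not tested.

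**Figure D4:**
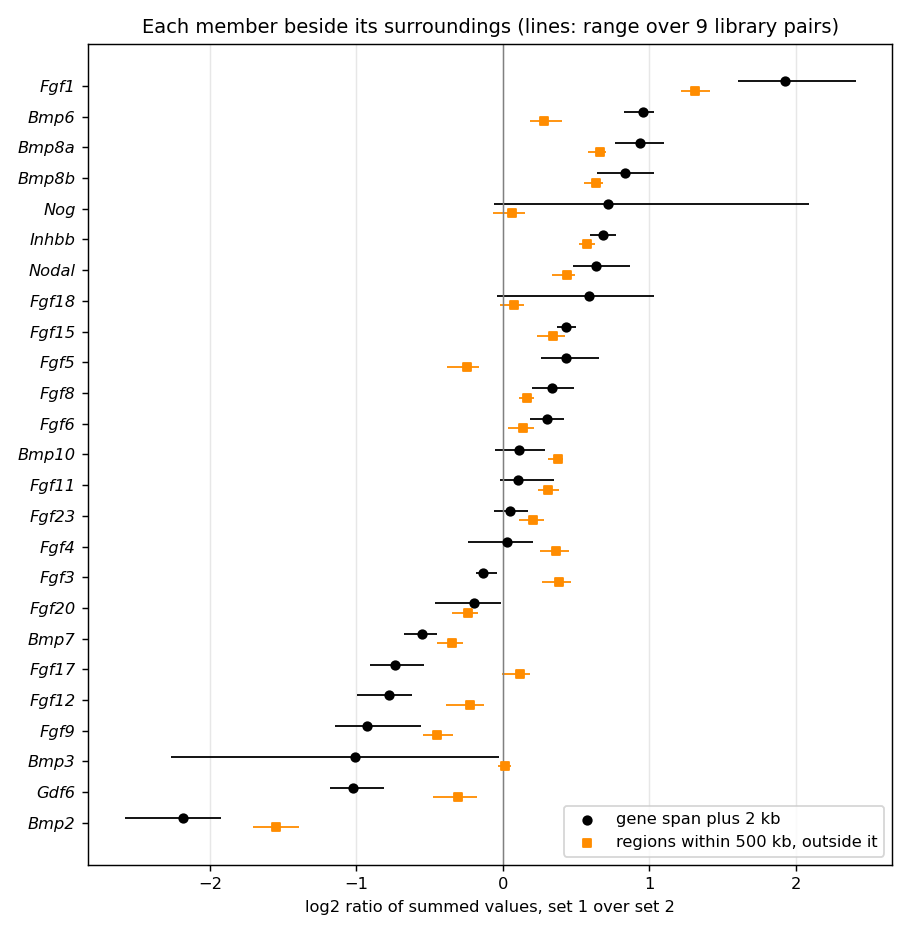
Log2 ratio of set 1 over set 2 for each gene (black circles) and for listed regions within 500 kb outside it (orange squares), with lines for the range over 9 library pairs. Fgf5, Fgf3 and Fgf17 lie on the opposite side of 0 from their surroundings with no overlap of the ranges. For Fgf3 this holds only with its flank included, and the range of the Fgf17 surroundings crosses 0. Bmp2 and Fgf1 lie beyond their surroundings on the same side.

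Fgf5, Fgf3 and Fgf17 departed from their surroundings. Around Fgf5, 43 of 61 regions were higher in set 2 and the sum was 1.18-fold higher there, while Fgf5 itself was higher in set 1. Around Fgf3, 165 of 193 were higher in set 1, with a ratio of 1.30, while Fgf3 was higher in set 2 with its flank included and overlapped with the gene span alone. Fgf17 was higher in set 2 beside surroundings at 1.08 towards set 1, whose sets overlapped. Bmp3 was higher in set 2 beside surroundings at 1.01 towards set 1, but the ranges of gene and surroundings overlapped. Each library's gene sum was then taken as a percentage of its surroundings, which divides out a factor shared by both sums. The surroundings are themselves regions selected on p and are no neutral baseline. The part of a shared factor in the genes' ratios was not tested. On the percentage scale, chosen after the data were seen, 8 genes were separated towards set 1 and 11 towards set 2. No share over all genes with regions was computed on that scale. The 2 counts are therefore not read as a lean of the listed genes. Of the 19 separated before, 16 stayed so in the same direction and 3, Fgf15, Fgf20 and Nodal, overlapped. Among those 3, Fgf20 also turned, to a ratio of 1.03 towards set 1 (0.887 to 1.15). Bmp2 fell to 1.56-fold higher in set 2 (1.30 to 1.99) and Fgf1 to 1.54-fold higher in set 1 (1.24 to 2.09). Bmp6 stood at 1.60 (1.502 to 1.72), Fgf5 at 1.59 (1.48 to 1.76) and Gdf6 at 1.65 towards set 2 (1.37 to 1.97). Fgf17 was 1.80-fold higher in set 2 (1.52 to 2.10). Fgf4, Fgf23 and Bmp10, which overlapped on the deposited values, were separated towards set 2 relative to their surroundings.

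Counted by region, the listed genes leaned towards set 2. Set 2 was the higher for 212 of their 325 regions and set 1 for 113 (34.8%), where over the whole table set 1 was the higher for 59.5% and set 2 for 40.5%. The sets did not overlap in 60.3% of the genes' regions and 65.1% of all. Regions with 3 values above all 3 of the other set numbered 61 towards set 1 (18.8%, against 40.5% of all regions) and 135 towards set 2 (41.5%, against 24.7%). Fgf12 alone decides the lean. Of the 199 regions without it, set 1 was the higher in 110 and set 2 in 89. Summed over all 25 genes, set 1 stood at 37270, 37436 and 35353 and set 2 at 39995, 43134 and 40435 in set 2, 1.12-fold higher in set 2 (1.07 to 1.22). Without Fgf12 and Bmp7, which held 42.4% of the summed value, the remaining 23 genes were 1.14-fold higher in set 1 (1.08 to 1.19).

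Over all listed regions, set 1 exceeded set 2 by 1.14-fold, a log2 shift of 0.19. Rescaling each library to the same sum changed the split of the 25 genes from 16 higher in set 1 and 9 in set 2 to 12 and 13. The share higher in set 1 went from 64% to 48%. For all genes with regions, set 1 was the higher in 69.3% (61.2% after rescaling) and set 2 in 30.7%. The 4 genes that turned, Fgf4, Fgf11, Fgf23 and Bmp10, all overlapped between the sets on the deposited values. All 19 separated genes kept their direction and their separation, and Fgf4 became separated towards set 2.

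Other genes of these pathways were taken from 4 lists by role. Of 89 genes, 22 carried regions (24.7%, against 31.2% of all protein-coding genes), 14 separated towards set 1, 5 towards set 2 and 3 overlapping. The separated shares, 63.6% and 22.7%, are close to the 59.1% and 22.3% of all genes with regions, so the lean towards set 1 is that of the whole table. Among 16 further ligands, 6 carried regions (37.5%, median log2 ratio 0.77 beside 0.37 for all genes with regions) and 5 were separated towards set 1. Of these Inhbc stood at 1.44-fold (1.30 to 1.55) and Inhbe at 1.68-fold (1.48 to 2.00), both activin subunits, and Lefty2, a nodal inhibitor, at 1.73-fold (1.58 to 1.91). Among 22 further antagonists and modifiers, 7 carried regions (median log2 ratio 0.25) and 5 were separated towards set 1, with Fstl4 at 1.15, Sost, the bone inhibitor sclerostin, at 1.19 and Chrdl2 at 1.11. Those 3 had the highest summed values and lie near the overall 1.14. The other separated genes of that list, named after their values were seen, had larger ratios: Cer1, a nodal and BMP antagonist, at 2.51 (2.17 to 2.76) and Ltbp1, which binds latent TGF-beta, at 7.98 (5.04 to 14.5) from 1 region.

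Receptors and coreceptors ran both ways, with 8 of 23 carrying regions (median log2 ratio -0.21), 3 separated towards set 1 and 5 towards set 2. The coreceptor gene Klb, which serves the hormone FGFs, was 1.05-fold higher in set 2 (1.00 to 1.13), Fgfr3 1.51-fold (1.31 to 1.68) and Cfc1, a nodal coreceptor, 1.48-fold (1.35 to 1.70). Acvr1c, a nodal receptor, was 1.51-fold higher in set 1 (1.43 to 1.57), Bmpr1b 1.44-fold (1.23 to 1.67) and Acvrl1 1.18-fold (1.04 to 1.30). Of 28 signal transducers and targets, including the SMAD, Id and Sprouty genes, only Id3 carried a region. It had 41, 30 and 32 in set 1 and 17, 10 and 19 in set 2, a ratio of 2.24 (1.58 to 4.10). Regions were thus listed at 37.5% of further ligands, 31.8% of antagonists and modifiers, 34.8% of receptors and 3.57% of transducers and targets, beside 31.2% of all protein-coding genes and 58.1% of the 43 listed genes.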

How the data were processed

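H3K27me3 chromatin immunoprecipitation libraries (3 per construct) and 1 input per construct were described by the labels. BWA 0.7.17, Trimmomatic 0.36, CASAVA and the build GRCm38 are named in the submitters' processing notes. The region caller, any scaling and any use of the inputs were not given in the sources used here. In the deposited table, which has no header, 1 field per region holds 3 whole-number values per set of libraries, beside what was taken to be −log10 of the authors' p. These values were not treated as raw counts, no count model was fitted, and library depth is unknown. The p was used only in 1 alternative.

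Here, regions were assigned to RefSeq GRCm38.p6 gene spans with a flank of 2 kb and any overlap, and values were summed per gene and library. Log2 ratios carry a pseudocount of 1; folds carry none. No header ties values to samples or replicate numbers, so no mean ± SD is given. Whether the libraries came from separate cultures is not stated beyond the word replicate. The genes, lists and rules were chosen with earlier results of these data known. By rule, each listed gene with a region is named, with its highest region, and in places that of largest separated ratio, for those described most fully, and up to 3 genes per direction of each further list, those with the highest summed value among separated genes. The overlap and ratio steps were tested on simulated data. Promoter sequences came from RefSeq (GRCm38.p6), with entries for 30 of the 43 genes. Python 3.11.15, numpy 2.4.6 and pandas 2.3.3 were used.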

Additional observations from a re-analysis of the deposited data

How the results depend on the processing

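Alternatives covered gene spans alone, a flank of 5 kb, regions at the authors' p under 0.05, at least 50% of the region inside the extended span, libraries rescaled to equal sums, a pseudocount of 10 and each library left out in turn. Regions of at least 500 bp, separated regions only and ratios relative to the surroundings were added after the data were seen. Genes with a region numbered 22 to 27. Leaving out each library in turn gave 10 to 13 genes separated towards set 1, 9 in every case towards set 2, 25 genes with a region, 113 to 114 regions higher in set 1 and 211 to 212 in set 2. Fewer values per set make separation easier. With regions of at least 500 bp the regions higher in set 1 and set 2 were 49 and 79, and with separated regions only 61 and 135. Both settings keep fewer regions by construction. No gene separated on the deposited values was separated the other way under these alternatives. Relative to the surroundings, Fgf15, Fgf20 and Nodal overlapped, and Fgf4, Fgf23 and Bmp10 became separated. The Fgf20 ratio turned on that scale, to 1.03 towards set 1 (0.887 to 1.15). Separation was lost by Fgf3, Fgf20 and Nodal with gene spans alone, by Fgf3 and Fgf20 with at least 50% of the region inside, and by Fgf20 with a flank of 5 kb, at p under 0.05, and with either added choice of regions. Fgf1, Fgf9 and Bmp3 have no region of at least 500 bp. Separation was gained by Fgf23 and Bmp10 with a flank of 5 kb, by Fgf11 at p under 0.05, by Fgf4 with rescaling, and by Fgf4 and Bmp10 with separated regions only. With 1 library left out it was gained by Fgf18, Fgf23 and Nog (second value of set 1), Bmp10 (the third of set 1), Nog (second of set 2) and Fgf18 (the third of set 2). Of 339 recomputed log2 ratios, 307 moved by less than the spread between libraries. Fgf18, Bmp8b and Nog had regions in the flank alone and drop out with gene spans alone. Genes with low values, such as Fgf1, Bmp2, Bmp3 and Bmp8b, are the least precise, and the unknown depth allows no interval on them. No paired analysis was possible because the listed values carry no replicate numbers.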
